A study of Homo sapiens with 8 samples.

Results

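The AP-1 and immediate early factors described here are 10 genes, taken by symbol from the 18406 rows of a table of normalised counts: FOS, FOSB, FOSL1, FOSL2, JUN, JUNB, JUND, EGR1, EGR3 and IER3. All 10 were in the table and 9 passed the filter for testing, a mean of at least 10 over all libraries, which IER3 did not reach. The cells were 92.1, an established line from a human uveal melanoma, and their RNA was sequenced after 24 h with DMSO vehicle, 10 nM trametinib, 10 nM panobinostat or both drugs, with 2 libraries per group. Trametinib blocks MEK1 and MEK2, the kinases that activate ERK, and panobinostat is a histone deacetylase inhibitor, although the labels of the panobinostat and combination libraries also carry the abbreviation for a MEK inhibitor. The combination label gives 10 nM once, so 10 nM of each drug is an assumption. Every group came from 1 cell line, and cells in all groups were trypsinised and washed before lysis. By their sample numbers, the vehicle and trametinib libraries were registered apart from the panobinostat and combination libraries. Comparisons of groups with panobinostat against groups without it span that split. No batch is stated, and any such difference between the sets cannot be told apart from panobinostat.

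AP-1 is a dimer of basic leucine zipper proteins that binds DNA at short palindromic sites. JUN proteins pair with each other or with FOS proteins, whereas FOS proteins need a JUN partner. Many of these genes are immediate early genes, transcribed within minutes of a growth signal without new protein synthesis. ERK, the kinase that MEK activates, phosphorylates the ternary complex factors that sit with SRF on FOS and EGR1, and it also stabilises the FOS family proteins. In uveal melanoma, mutant G alpha q proteins feed the same ERK cascade.

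The promoters of 7 of the 10 genes were found by symbol in RefSeq (build GRCh38.p14), and FOSL1, EGR3 and IER3 were not matched. The 250 bases before the annotated start are shown for 4 genes that differed in response: EGR1, which fell with trametinib, JUN, which rose, JUND, which fell by less, and FOS, whose change did not pass. Letters are 5′ to 3′ on the gene's strand, and capitals mark matches to the motifs named after the sequences.
EGR1, chr5:138465229-138465478, plus strand: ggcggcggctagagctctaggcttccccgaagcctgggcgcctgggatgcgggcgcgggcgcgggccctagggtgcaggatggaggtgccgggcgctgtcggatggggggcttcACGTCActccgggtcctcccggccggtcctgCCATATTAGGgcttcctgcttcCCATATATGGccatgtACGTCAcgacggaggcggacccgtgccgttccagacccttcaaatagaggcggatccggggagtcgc
JUN, chr1:58784048-58784297, minus strand: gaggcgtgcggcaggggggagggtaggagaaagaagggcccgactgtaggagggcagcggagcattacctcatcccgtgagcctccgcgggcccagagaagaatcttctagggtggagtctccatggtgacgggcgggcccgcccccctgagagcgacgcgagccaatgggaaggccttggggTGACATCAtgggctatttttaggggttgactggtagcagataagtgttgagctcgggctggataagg
JUND, chr19:18281623-18281872, minus strand: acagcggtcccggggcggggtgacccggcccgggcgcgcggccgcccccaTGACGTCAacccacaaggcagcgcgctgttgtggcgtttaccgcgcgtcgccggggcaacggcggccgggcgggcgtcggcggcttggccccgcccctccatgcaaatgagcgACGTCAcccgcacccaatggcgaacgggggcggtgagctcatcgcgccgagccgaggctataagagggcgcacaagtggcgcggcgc
FOS, chr14:75278578-75278827, plus strand: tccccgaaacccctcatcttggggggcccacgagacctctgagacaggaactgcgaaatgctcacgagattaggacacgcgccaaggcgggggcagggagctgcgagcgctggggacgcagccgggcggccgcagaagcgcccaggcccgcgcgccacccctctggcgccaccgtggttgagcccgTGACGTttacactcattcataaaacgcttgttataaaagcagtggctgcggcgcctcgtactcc

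Both strands were searched for the CArG box bound by SRF, the AP-1 site TGACTCA, the CREB and ATF site TGACGTCA, its shorter form TGACGT, which every TGACGTCA also holds, and TGACATCA, a variant known from JUN. EGR1 held 2 CArG boxes, CCATATTAGG and CCATATATGG, with first bases at -105 and -83 from the start. It was the only one of the 7 promoters with that motif, which 1.16% of all 35116 promoters held over the same 250 bases. JUN held TGACATCA at -67, a motif found in 2.37% of promoters. TGACGT was present in 5 of the 7 (FOS, FOSB, FOSL2, JUND and EGR1) against 7.10% of all promoters, and in 7 of 40 promoters of other immediate early genes. TGACGTCA was in JUND alone, at -200 (1.65% of promoters), and TGACTCA in none of the 7 (4.20% of promoters). These matches describe the letters of the window, and binding was not measured. Bases further upstream were not searched, so the lack of a match here does not show that FOS or another gene lacks a CArG box.

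Recovered reads per library ran from 6897784 to 16861001, and Pearson's r between replicates over 13320 tested genes was 0.897 for the trametinib pair and 0.974 to 0.991 for the other 3 pairs. The trametinib libraries had more genes at 0, 3743 and 5362 in replicates 1 and 2 against 2222 to 2890 elsewhere. The 7 melanocyte lineage markers in the table had a summed value between 99938 and 175142 in every library. All 7 rose with trametinib against vehicle (median 0.85), and 2 rose and 1 fell with panobinostat. Summed values of 2 immune and 4 endothelial markers reached at most 11.7 and 144, the latter nearly all VWF, with CDH5 at 0 throughout. Summed values of 3 epithelial markers ran from 7.06 to 91.3. Among them KRT14 had means of 3.39 (vehicle), 23.6 (trametinib), 0.50 (panobinostat) and 38.6 (both drugs). Summed fibroblast markers ran from 402 to 1325 and were lowest in vehicle, with COL1A1 and LUM the highest of the 6. Their part in the results was not tested. Separate cultures are not stated for the replicates, so the p-values reflect only how these libraries vary, and that variation may be technical.

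**Figure D1:**
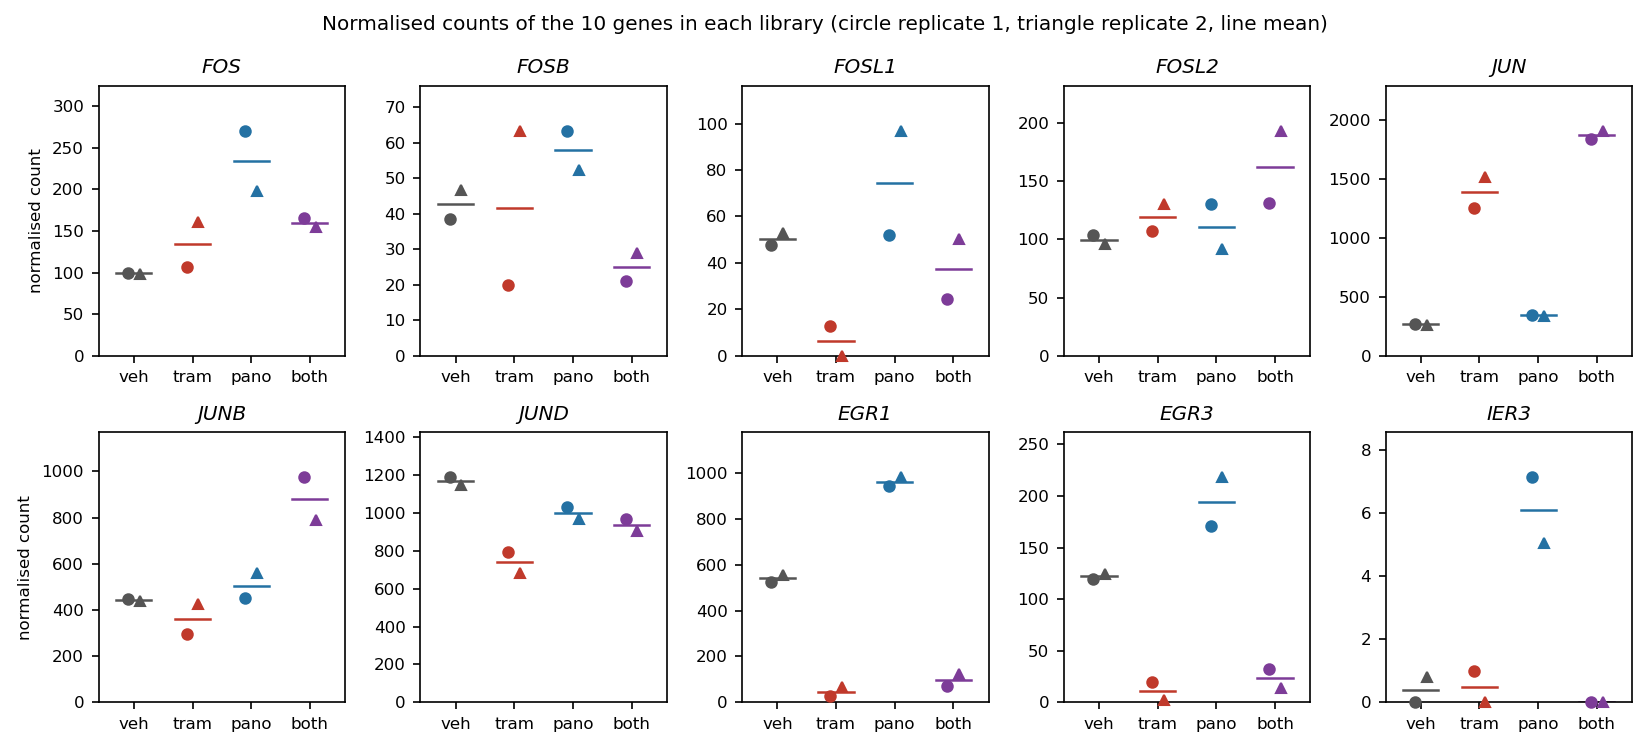
Normalised counts (y axis, from 0, a separate scale for each gene) of the 10 genes in vehicle, trametinib, panobinostat and both drugs (x axis), with a circle for replicate 1, a triangle for replicate 2 and a line at the group mean. EGR1 and EGR3 were low in all 4 libraries with trametinib, JUN was high in the same 4, and JUNB was highest with both drugs.

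By limma on log2(value + 1), 1 of the 9 tested genes rose with trametinib against vehicle and 4 fell, where 51.0% of all tested genes were called (23.7% higher and 27.4% lower). JUN rose 5.15-fold, while EGR1, EGR3, FOSL1 and JUND fell. The share of members called, 5 of 9, was close to that of all genes. The median log2 change was -0.32 over the 9 and -0.07 over all genes. Changes below are log2 changes ± SE, with p-values adjusted over all 13320 genes.

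EGR1 and EGR3 are zinc finger transcription factors of the early growth response family, and EGR1 is a standard readout of ERK activity. EGR1 stood at 525 and 556 (vehicle), 29.1 and 65.3 (trametinib), 943 and 979 (panobinostat) and 71.4 and 125 (both drugs). No library with trametinib reached any library without it, and the 4 groups did not overlap in the order trametinib, combination, vehicle, panobinostat. Trametinib changed EGR1 by -3.60 ± 0.36 (adjusted p = 3.31e-05), and adding trametinib to panobinostat, a comparison of the other 4 libraries, changed it by -3.33 ± 0.36 (adjusted p = 0.000173). Both calls held with each of the 8 libraries left out in turn.

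With panobinostat EGR1 differed from vehicle by 0.83 ± 0.36, which did not pass (adjusted p = 0.117). That change did pass without trametinib replicate 1 or 2 and with the 2 groups fitted alone. On reads it passed by edgeR (0.81) and DESeq2 (0.79), where panobinostat replicate 1 was the only panobinostat library, here and below. The spread of the trametinib libraries enters the shared fit, as does that of every other group. Omitting a library from a group not compared therefore leaves the change as it is and moves only its adjusted p. With panobinostat added to trametinib, EGR1 was 1.10 ± 0.36 higher (adjusted p = 0.0442). Leaving out either vehicle library, either panobinostat library, trametinib replicate 1 or combination replicate 2 ended this call, with values between 0.53 and 1.67 over the 8 omissions. The call also ended without the filter, under quantile normalisation (0.77) and with the 2 groups fitted alone. Against vehicle, EGR1 changed by -2.50 ± 0.36 in the combination (adjusted p = 0.000351), a call that held with each library left out.

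EGR3 followed the same order at lower values, 120 and 124 (vehicle), 20.1 and 2.01 (trametinib), 171 and 218 (panobinostat) and 32.8 and 13.7 (both drugs). The 4 libraries with trametinib again lay below the other 4, and the trametinib and combination libraries overlapped. The lowest value, in trametinib replicate 2, was 2 reads. Against vehicle EGR3 changed by -3.95 ± 0.81 with trametinib (adjusted p = 0.00284), -2.55 without trametinib replicate 2 and -5.35 without replicate 1. It changed by -3.12 ± 0.81 when trametinib was added to panobinostat (adjusted p = 0.0207), a call that ended without either panobinostat or either combination library (-3.72 to -2.52). The change of -2.47 ± 0.81 in the combination against vehicle (adjusted p = 0.0297) ended without either vehicle or combination library (-3.07 to -1.86). It also ended without either panobinostat library, at an unchanged -2.47, and without the filter (adjusted p = 0.0527). Panobinostat alone changed EGR3 by 0.66 ± 0.81, which did not pass (adjusted p = 0.593).

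The JUN proteins are the partners that every AP-1 dimer needs. With trametinib alone JUN rose, JUND fell and JUNB did not pass, while all 3 were higher with panobinostat added to trametinib. JUN, which encodes c-Jun, stood at 270.2 and 265 (vehicle), 1258 and 1523 (trametinib), 349 and 343 (panobinostat) and 1840 and 1911 (both drugs). The 4 groups did not overlap. JUN rose with trametinib by 2.37 ± 0.11 (adjusted p = 2.73e-07) and by 2.44 ± 0.11 when trametinib was added to panobinostat (adjusted p = 1.03e-06). Both calls, and that of the combination against vehicle (2.80 ± 0.11, adjusted p = 1.62e-07), held with each library left out. Panobinostat gave smaller rises, 0.37 ± 0.11 against vehicle (adjusted p = 0.0339) and 0.44 ± 0.11 when added to trametinib (adjusted p = 0.0154). The first ended without either vehicle or panobinostat library (0.35 to 0.38), without either combination library at an unchanged 0.37, and by DESeq2 (0.37). The second ended without combination replicate 1 (0.46) or 2 (0.41).

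JUNB, which often acts against JUN in proliferation, was at 448 and 441 (vehicle), 295 and 428 (trametinib), 453 and 559 (panobinostat) and 974 and 790 (both drugs). The groups did not overlap, but the single-drug libraries lay nearer to vehicle than the combination did. The combination was 1.97-fold higher than vehicle (0.98 ± 0.19, adjusted p = 0.00205). Against trametinib alone JUNB was 1.30 ± 0.19 higher (adjusted p = 0.000832). Both calls held with each library left out. Against panobinostat alone it was 0.80 ± 0.19 higher (adjusted p = 0.0137), a call that ended without panobinostat replicate 1 (0.65) or combination replicate 1 (0.65). Trametinib alone gave -0.32 ± 0.19, which did not pass (adjusted p = 0.185), but passed at -0.59 without trametinib replicate 2 (adjusted p = 0.00203).

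JUND, the JUN protein most often found in resting cells, was at 1186 and 1148 (vehicle), 794 and 683 (trametinib), 1030 and 966 (panobinostat) and 967 and 904 (both drugs). Trametinib lay below every other group. JUND fell by 0.66 on the log2 scale with trametinib (-0.66 ± 0.10, adjusted p = 0.000455), and this call held with each library left out. In the combination it was 0.80-fold of vehicle (-0.32 ± 0.10, adjusted p = 0.0242), and 0.34 ± 0.10 above trametinib alone (adjusted p = 0.0271). The first of these ended without either vehicle or either combination library (-0.37 to -0.27) and under quantile normalisation (-0.18). The second ended without either vehicle or combination library or trametinib replicate 2 (0.23 to 0.45 over all omissions) and with the 2 groups fitted alone (adjusted p = 0.124). Trametinib added to panobinostat gave -0.09 ± 0.10, which did not pass (adjusted p = 0.570, 95% interval -0.32 to 0.13).

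**Figure D2:**
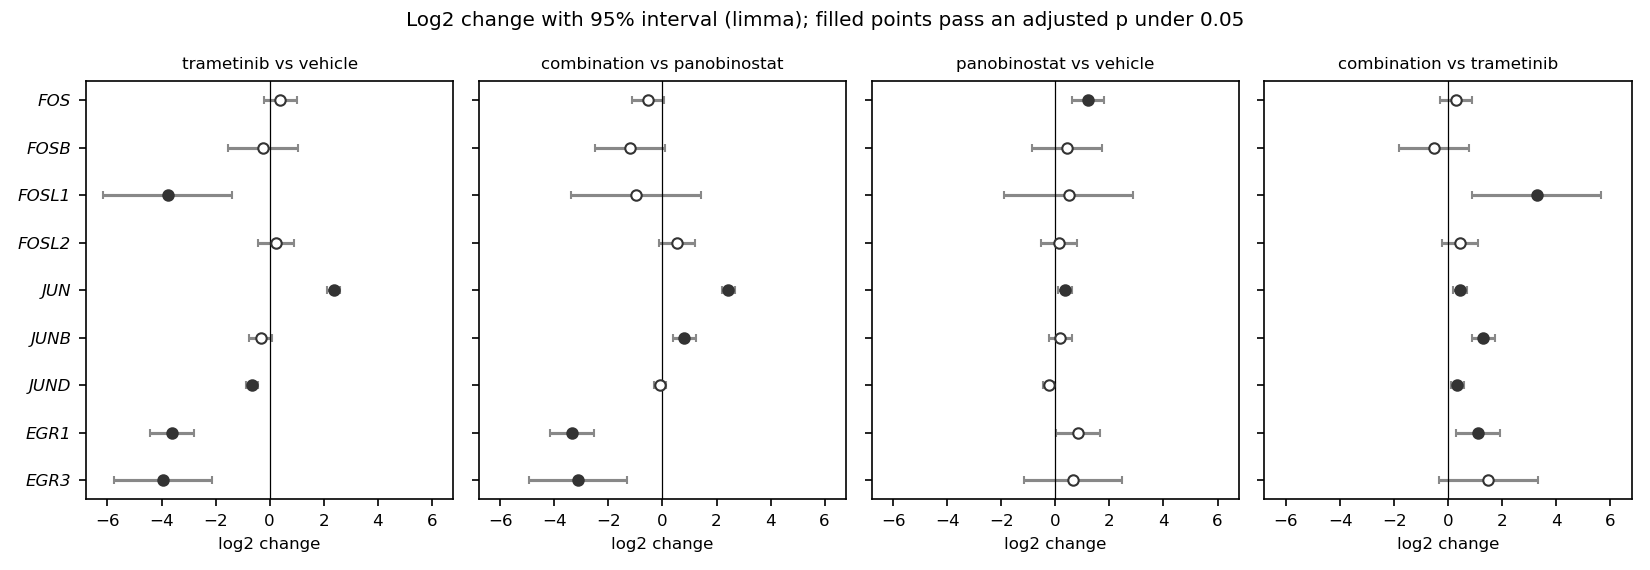
Log2 change (x axis) of the 9 tested genes (y axis) with limma's 95% interval in 4 comparisons, filled where the adjusted p was under 0.05. The first pair of panels shows trametinib against vehicle and trametinib added to panobinostat, where JUN lay at 2.37 and 2.44 and EGR1 at -3.60 and -3.33. The second pair shows panobinostat against vehicle and panobinostat added to trametinib.

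Of the FOS family, FOS did not pass as lower with 24 h of trametinib against vehicle. FOS, the prototype immediate early gene, was at 99.9 and 99.0 (vehicle), 107 and 161 (trametinib), 270.1 and 198 (panobinostat) and 165 and 155 (both drugs). Both vehicle libraries were the lowest of the 8. Trametinib changed FOS by 0.40 ± 0.27 (adjusted p = 0.238), with a 95% interval from -0.20 to 1.00 that does not reach the change of EGR1. Without trametinib replicate 1 the change was 0.69 and passed as higher (adjusted p = 0.0155). Panobinostat raised FOS 2.31-fold (1.21 ± 0.27, adjusted p = 0.00795), a call that ended without vehicle replicate 1 (adjusted p = 0.0572) or 2 (0.0601) or panobinostat replicate 1 (0.0892). By limma, 2 of the 9 genes rose with panobinostat, FOS and JUN, and 0 fell, where 30.5% of all genes were called, 15.0% higher and 15.6% lower. The 0 held by edgeR and DESeq2, while JUND passed as lower without trametinib replicate 1 or 2 (adjusted p = 0.0266 and 0.0253).

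In the combination FOS was 0.68 ± 0.27 above vehicle and did not pass (adjusted p = 0.0577). It passed without trametinib replicate 1 or 2 (adjusted p = 0.00446 and 0.00528), by edgeR (0.00274) and by DESeq2 (0.0246). Trametinib added to panobinostat changed FOS by -0.53 ± 0.27 (adjusted p = 0.195), which passed as lower without trametinib replicate 1 or 2. It also passed as lower with the 2 groups fitted alone (adjusted p = 0.0334) and by edgeR (-0.77), but not by DESeq2.

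FOSL1, which encodes FRA-1 and is known for following sustained ERK signalling, was at 47.5 and 53.0 (vehicle), 13.04 and 0 (trametinib), 52.0 and 96.8 (panobinostat) and 24.6 and 50.2 (both drugs). Both trametinib libraries lay below the other 6, at 13 and 0 reads by each library's step, and a count of 0 allows up to 3 reads, counting error only. FOSL1 changed by -3.77 ± 1.07 with trametinib (adjusted p = 0.0151). Without trametinib replicate 2, the library with 5362 genes at 0, the change was -1.87, and without replicate 1 it was -5.68. The call ended without vehicle replicate 1 (adjusted p = 0.0697) or 2 (0.0797) and with the 2 groups fitted alone (0.0884). The combination was 3.27 ± 1.07 above trametinib (adjusted p = 0.0416), a call kept in 2 of 8 omissions and lost with a pseudocount of 0.5, without the filter, under quantile normalisation and with the 2 groups fitted alone. It was lost without either vehicle or panobinostat library, at an unchanged 3.27, and without either combination library. Without trametinib replicate 2 this change was 1.37. Trametinib added to panobinostat gave -0.99 ± 1.07 (adjusted p = 0.570), with an interval from -3.39 to 1.41.

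By limma, FOSB and FOSL2, which encodes FRA-2, passed in none of the 6 comparisons. FOSB was at 38.5 and 46.7 (vehicle), 20.1 and 63.3 (trametinib), 63.2 and 52.4 (panobinostat) and 21.1 and 28.9 (both drugs). Its trametinib libraries spanned the whole range of vehicle, so that leaving out replicate 1 or 2 turned the change of -0.24 into 0.57 or -1.04. FOSB was lowest in the combination, -1.19 ± 0.58 against panobinostat (adjusted p = 0.178). That change passed without trametinib replicate 1 (adjusted p = 0.00869) or 2 (0.0152) and by edgeR (0.0232), and the combination passed as lower than vehicle under quantile normalisation (-1.63, adjusted p = 0.0394). FOSL2 was at 104 and 95.8 (vehicle), 107 and 131 (trametinib), 130.5 and 91.8 (panobinostat) and 131 and 193 (both drugs). Its change of 0.67 ± 0.30 in the combination against vehicle did not pass (adjusted p = 0.0870) but did without trametinib replicate 1 or 2 (adjusted p = 0.0178 and 0.0186), by edgeR (0.00905) and by DESeq2 (0.0492).

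IER3, an ERK-responsive survival gene, was near the detection limit. Its values were 0 and 0.79 (vehicle), 1.00 and 0 (trametinib), 7.14 and 5.04 (panobinostat) and 0 and 0 (both drugs). These values are 7 and 5 reads with panobinostat and at most 1 read in each other library, so no fold is given. In a fit without the filter, IER3 passed as higher with panobinostat against vehicle (adjusted p = 0.0341) and lower in the combination against panobinostat (adjusted p = 0.0204).

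With panobinostat added to trametinib, 5 of the 9 genes were called higher (JUN, JUNB, JUND, EGR1 and FOSL1) and 0 lower, where 32.8% of all genes were called, 17.6% higher and 15.2% lower. The number called higher was 1 to 5 over the 8 omissions, and JUN and JUNB alone passed with the 2 groups fitted alone. Trametinib added to panobinostat raised 2 (JUN and JUNB) and lowered 2 (EGR1 and EGR3), where 24.0% of all genes were called, 10.9% higher and 13.1% lower. In the combination against vehicle, 2 rose (JUN and JUNB) and 3 fell (EGR1, EGR3 and JUND), where 50% of all genes were called, 24.5% higher and 25.5% lower.

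The interaction compares what panobinostat did on top of trametinib with what it did alone, as a difference of log2 changes, and is 0 where the single-drug changes add up. By limma 2 of the 9 passed, both higher, where 19.3% of all genes were called, 10.2% higher and 9.04% lower. JUNB stood 1.12 ± 0.27 above the sum of the single-drug changes (adjusted p = 0.0181) and JUND 0.57 ± 0.14 above it (adjusted p = 0.0215). The JUNB call ended without vehicle replicate 1 or 2, panobinostat replicate 1 or combination replicate 1 (0.86 to 1.39 over the 8 omissions). The JUND call ended without any 1 vehicle, panobinostat or combination library (0.46 to 0.68). JUN lay close to the sum, at 0.07 with an interval from -0.29 to 0.43, and EGR1 at 0.27 with an interval from -0.89 to 1.42. FOS, at -0.93 ± 0.38 (adjusted p = 0.120), passed as lower without trametinib replicate 1 (-1.21, adjusted p = 0.00322).

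**Figure D3:**
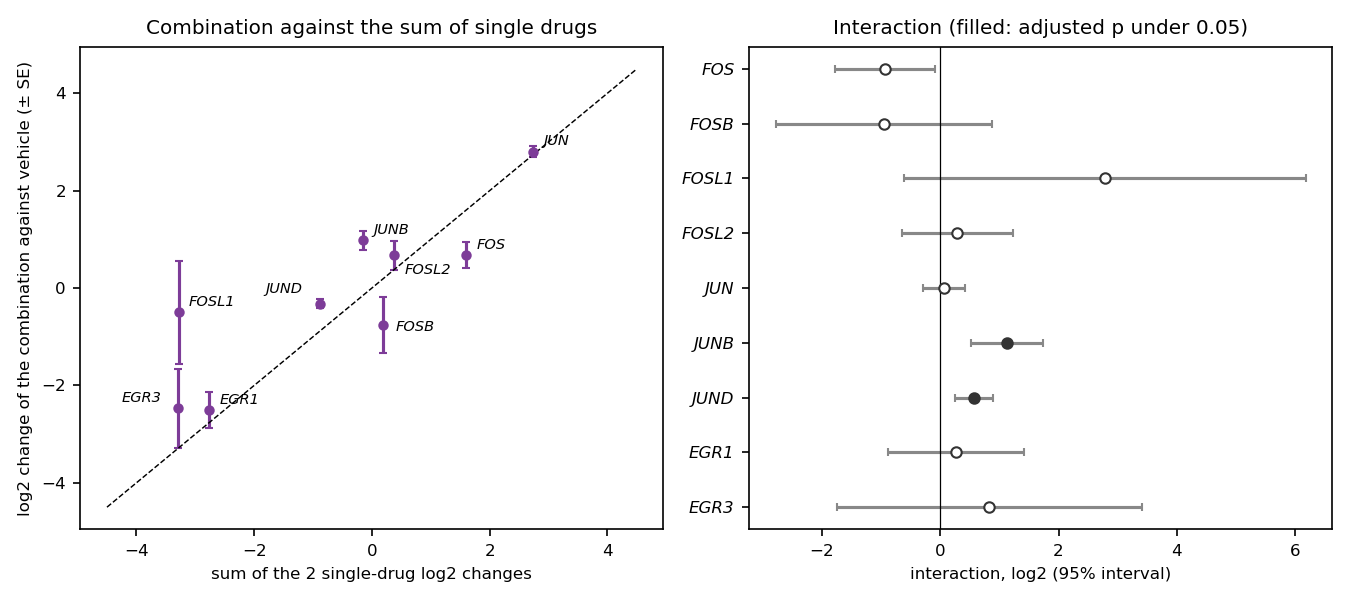
Left, log2 change of the combination against vehicle with its SE (y axis) against the sum of the 2 single-drug log2 changes (x axis) for the 9 tested genes, with a dashed line where both are equal. Right, the interaction in log2 with its 95% interval, filled where the adjusted p was under 0.05: JUNB at 1.12 and JUND at 0.57.

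Other genes of the pathway were read from 5 lists. The lists were chosen with earlier results of these data known, so their shares beside those of all genes are descriptions and not independent tests. Of 40 other immediate early genes, 36 were tested. With trametinib 9 of them rose (25%, against 23.7% of all genes) and 20 fell (55.6% against 27.4%), with a median of -0.50 against -0.07 over all genes (-0.40 with the gene at 0 in both trametinib libraries set to its bound of 3 reads per library). NR4A1, an orphan nuclear receptor, went from 2458 and 2352 to 595 and 610, a change of -1.996 (adjusted p = 5.09e-08). PHLDA1 changed by -2.13 (adjusted p = 1.26e-07). KLF6, a zinc finger factor, rose from 1136 and 1165 to 3576 and 3556 (1.63, adjusted p = 1.01e-07). Panobinostat raised 10 of the 36 (27.8% against 15.0% of all genes) and lowered 4 (11.1% against 15.6%), with a median of 0.02. Among those raised were the antiproliferative gene BTG1 (2.201, adjusted p = 1.07e-05) and the mRNA decay factor ZFP36L1 (1.18, adjusted p = 9.48e-05). Trametinib added to panobinostat raised 11 (30.6% against 10.9% of all genes) and lowered 9 (25% against 13.1%), with NR4A1 at -1.82 (adjusted p = 4.87e-07).

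A list of direct ERK feedback and output genes held phosphatases and Sprouty and SPRED inhibitors that restrain the cascade, and also outputs such as CCND1, PHLDA1 and the ETV transcription factors. Of its 15 genes 14 were tested. With trametinib 0 rose and 13 fell (92.9%, against 27.4% of all genes lower), with a median of -3.37. When trametinib was added to panobinostat 0 rose and 12 fell (85.7% against 13.1%), with a median of -3.64. DUSP4, a phosphatase of ERK, went from 6693 and 7080 to 751 and 817 (-3.13, adjusted p = 2.11e-08). PHLDA1 stands in this list and among the other immediate early genes.

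Among 29 upstream regulators, all tested, trametinib raised 4 (13.8% against 23.7% of all genes) and lowered 10 (34.5% against 27.4%), with a median of -0.28. Panobinostat raised 2 (6.90% against 15.0%) and lowered 5 (17.2% against 15.6%). RPS6KA3, which encodes the ERK-activated kinase RSK2, changed by -1.69 (adjusted p = 4.82e-07) with trametinib and -1.46 (adjusted p = 4.95e-06) when it was added to panobinostat. Of 27 other bZIP partners 22 were tested, and 6 rose and 6 fell with trametinib (median -0.06). Each is 27.3% of the list, near the 23.7% and 27.4% of all genes. The large MAF factor MAF rose from 638 and 659 to 6811 and 7315 with trametinib (3.44, adjusted p = 6.69e-09), and NFE2L2, the oxidative stress factor NRF2, changed by -1.70 (adjusted p = 4.30e-07). Panobinostat raised 3 and lowered 3 of the 22, each 13.6% and near the 15.0% and 15.6% of all genes, with MAF at 0.96 (adjusted p = 2.80e-05).

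Of 34 genes known as AP-1 targets, 20 were tested. Trametinib raised 6 (30% against 23.7% of all genes) and lowered 8 (40% against 27.4%), with a median of -0.40. Panobinostat raised 11 (55% against 15.0%) and lowered 1 (5% against 15.6%), with a median of 0.51 against 0.00 over all genes. HMGA2, a chromatin architectural protein, was at 2082 and 2174 (vehicle), 52.2 and 60.3 (trametinib), 2095 and 2053 (panobinostat) and 318 and 321 (both drugs). It changed by -5.22 with trametinib (adjusted p = 6.69e-09) and -2.69 when trametinib was added to panobinostat (adjusted p = 7.21e-07). SPP1, which encodes osteopontin, was at 439 and 409 in vehicle and between 2043 and 2493 in the 6 treated libraries. Panobinostat added to trametinib raised 9 of the 20 AP-1 targets (45%) and lowered 2. Of the other immediate early genes it raised 19 of 36 (52.8%) and lowered 5. Of the ERK feedback and output genes it raised 7 of 14 (50%) and lowered 1. It raised 4 of 22 other bZIP partners and lowered 7, and raised 5 of 29 upstream regulators and lowered 3. Of all genes 17.6% rose and 15.2% fell. 

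**Figure D4:**
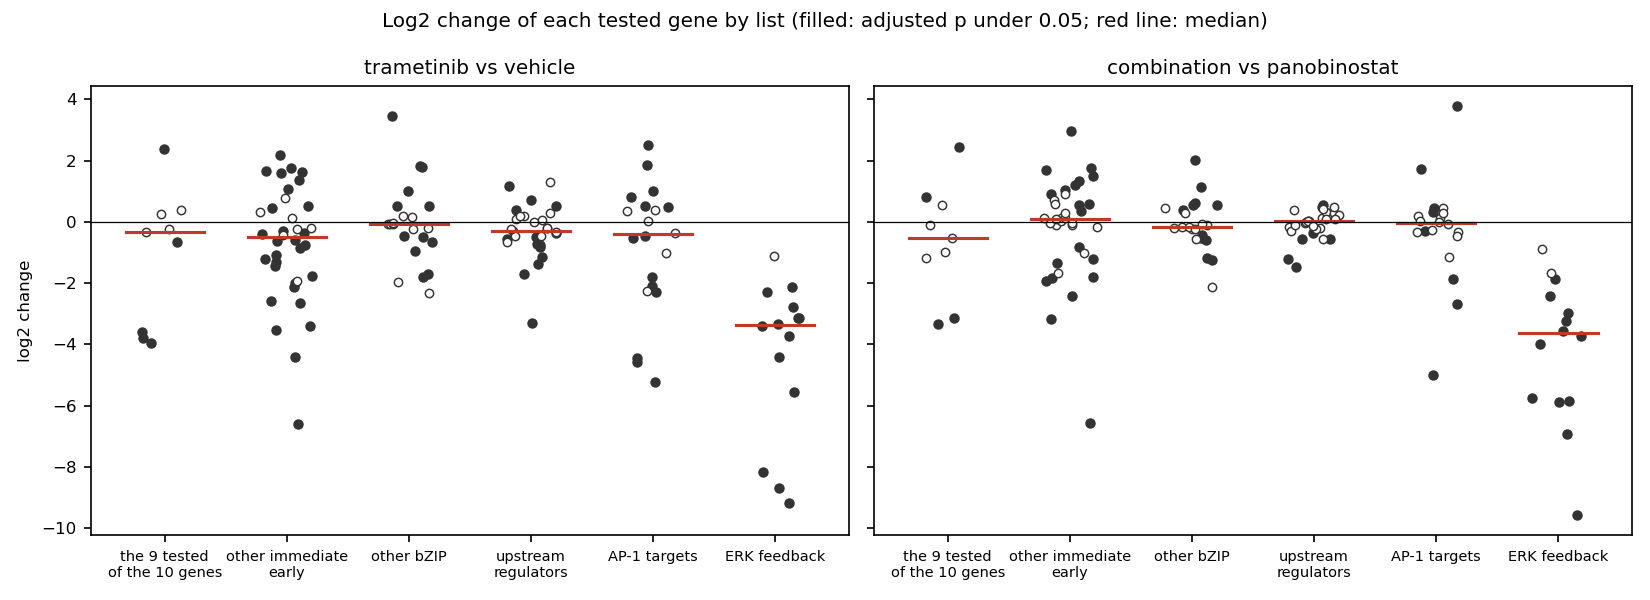
Log2 change (y axis) of each tested gene in 6 lists (x axis) with trametinib against vehicle and with trametinib added to panobinostat, filled where the adjusted p was under 0.05, with a red line at the median of each list. The ERK feedback and output genes have medians of -3.37 and -3.64, while the other 5 lists spread on both sides of 0.

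Patterns most like each factor were sought over the 8 libraries on the log2 scale among 11217 other genes with a mean of at least 50. The likeness is a description, since the libraries share groups and depth. EGR1 was closest to NFATC2 (r = 0.995), at 145 and 137 (vehicle), 11.03 and 17.1 (trametinib), 237 and 245 (panobinostat) and 29.3 and 38.0 (both drugs). JUN was closest to FAM126A (r = 0.994), which was higher in the 4 libraries with trametinib than in the other 4. JUND was closest to NAMPT (r = 0.994) and JUNB to RAB11FIP5 (r = 0.972). FOSL1 was closest to DLEU1 (r = 0.988), which was at 1.00 in trametinib replicate 2.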

How the data were processed

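RNA-seq libraries from 92.1 cells were used, 8 in all, 2 for each of 4 groups. The authors deposited 1 table of normalised signal values per gene and library. TopHat2 2.0.13, Cufflinks 2.2.1 and DESeq2 are named in the submitters' processing notes, where build hs37d5 is listed for the 4 vehicle and trametinib libraries; annotation and strand use are not given in the sources used here. Each library's values were whole multiples of 1 step (within 1e-06), and read numbers are values divided by that step. For both trametinib libraries and panobinostat replicate 2 the step lay too near 1 to be accepted as the worth of a read, so read numbers printed for these 3 are less certain.

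Genes were tested with limma-trend (limma 3.58.1 under R 4.3.3) on log2(value + 1), all 8 libraries in 1 fit (4 residual and 5.32 prior degrees of freedom), over 13320 genes with a mean of at least 10. The threshold was an adjusted p (Benjamini-Hochberg) of 0.05. Fold changes are on the log2(value + 1) scale and understate changes of low genes. With 2 libraries a group, the smallest two-sided p of an exact permutation test is 0.333. edgeR 4.0.16 (quasi-likelihood) and DESeq2 1.42.0 were alternatives on reads of 5 libraries, both vehicle, panobinostat replicate 1 and both combination. The lone panobinostat library is then assumed to vary like the others. Other alternatives were the pseudocount (0.5 or 5), no filter, TMM and quantile scaling, fits of only the groups compared, a replicate block and each library left out. The tests were checked on simulated data, drawn around the vehicle means with the same spread in every library. The simulation did not hold the larger spread or the loss of low genes of the trametinib libraries.

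The 10 genes and the lists were chosen with earlier results of these data known. From each list, the 3 genes with the smallest adjusted p with trametinib or panobinostat against vehicle, or in the combination against panobinostat, could be named. Likeness was Pearson's r, with the 3 closest genes kept per factor. Replicate numbers did not pair the libraries. Overlapping or antisense transcripts cannot be separated where strand was not used.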

Additional observations from a re-analysis of the deposited data

Results flagged for a closer look

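JUNB and JUND were singled out because they passed the interaction test of the limma fit, which compares the change with trametinib with and without panobinostat. For JUNB the interaction was 1.12 in log2 (adjusted p = 0.0181): trametinib changed it by -0.32 ± 0.19 alone and by 0.80 ± 0.19 on panobinostat, with both combination libraries (974 and 790) above the other 6. For JUND it was 0.57 (adjusted p = 0.0215): trametinib changed it by -0.66 ± 0.10 alone and by -0.09 ± 0.10 on panobinostat. The comparison with trametinib alone rests on libraries that correlated at r = 0.897, the lowest of the 4 groups. Neither interaction call held in every omission of 1 library (0.86 to 1.39 for JUNB and 0.46 to 0.68 for JUND). The omissions that ended them were of vehicle, panobinostat or combination libraries, and not of trametinib libraries. Each omission also changes the spread shared by the fit, to which the trametinib libraries add. Which omissions ended the calls therefore does not show how far they rest on the trametinib libraries.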

How the results depend on the processing

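Counts of the 9 tested genes moved with the setting. With only the compared groups in the fit, panobinostat raised 4 and lowered 1, the combination raised 4 against vehicle and 2 against trametinib, and lowered 4 against panobinostat. On reads, edgeR gave 4 higher in the combination against vehicle and 4 lower against panobinostat, and DESeq2 gave 4 higher against vehicle. The combination against trametinib gave 3 higher without the filter and 3 under quantile normalisation. With each library left out, counts were 1 to 2 higher and 3 to 5 lower with trametinib, 0 to 3 higher and 0 to 1 lower with panobinostat, 2 to 4 higher and 1 to 3 lower in the combination against vehicle, 1 to 5 higher and 0 to 1 lower against trametinib, 1 to 2 higher and 1 to 4 lower against panobinostat, and 0 to 4 higher and 0 to 2 lower for the interaction. The causes were not tested.

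Quantile normalisation reversed EGR3 in the combination against trametinib (-0.38) and the interactions of EGR1 (-0.16) and EGR3 (-1.01); it moved the median of all genes with trametinib from -0.07 to 0.06. Leaving out 1 library reversed FOSB with trametinib (-1.04 to 0.57) and against trametinib (-1.32 to 0.29), FOSL2 with panobinostat (-0.12 to 0.39), FOS in the combination against trametinib (-0.0063 to 0.57), and the interactions of JUN (-0.068 to 0.21), EGR1 (-0.30 to 0.84) and EGR3 (-0.58 to 2.23). None of these had passed as reported. Without trametinib replicate 1 the interactions of FOSB (-1.75), FOSL1 (4.69) and EGR3 (2.23) passed, as did EGR1 (0.84) without trametinib replicate 2. In the combination against trametinib, FOSB (-1.32) and EGR3 (2.89) passed without trametinib replicate 1, and EGR3 passed with panobinostat when only those groups were fitted (0.66, adjusted p = 0.00499).

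Over all genes, fitting only the compared groups called 3567 higher and 3768 lower with panobinostat (1994 and 2075 as reported), 1148 and 1108 in the combination against trametinib (2343 and 2020), and 2602 and 2741 against panobinostat (1451 and 1740), where edgeR called 2237 and 2658. Leaving out 1 library gave 1029 to 3368 higher and 918 to 3436 lower with panobinostat, 1243 to 4238 and 1240 to 3145 in the combination against trametinib, 714 to 2758 and 929 to 2989 against panobinostat, and 617 to 3690 and 690 to 2525 for the interaction (1361 and 1204 as reported). In each of these 3 comparisons and the interaction the most calls came without a trametinib library.

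Same-numbered libraries did not deviate together (correlations from -0.0235 to 0.0218). A replicate block ended the call of FOSL1 in the combination against trametinib (3.27, adjusted p = 0.0503) and changed no other call of the 9 genes. Few reads stand behind IER3, FOSL1 and EGR3 in their lowest libraries, at 0, 0 and 2. For FOSL1 and EGR3 that library is trametinib replicate 2, whose total of 10528784 exceeded both combination totals. It had 5362 genes at 0 and 274 genes with 1 to 5 reads, where the other libraries had 988 to 2153 genes with 1 to 5 reads. Total depth therefore does not describe how that library held low genes, and the part of this in the 2 values was not tested.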
